A study of Homo sapiens with 6 samples.

Results

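Cancer-testis antigens are proteins whose genes are active in the male germ line, silent in most other adult tissues and switched on again in many tumours. The rows described here are those of the deposited count table whose gene name starts with MAGEA, MAGEB, MAGEC, PAGE, GAGE, XAGE, SSX, CTAG or CSAG, which gave 39 of 27452 rows. Of these, 32 belong to the antigen families, 10 of them MAGEA, 7 MAGEB, 4 CSAG, 4 GAGE, 3 SSX and 1 each MAGEC, PAGE, XAGE and CTAG. The other 7 share only the letters of the name. CTAGE4, CTAGE6 and CTAGE8 with the pseudogenes CTAGE3P, CTAGE7P and CTAGE12P form a separate, autosomal antigen family, and SSX2IP encodes a centrosome and adhesion protein that binds an SSX protein. The cells were labelled HepG2, the name of an established human liver cancer line. RNA sequencing compared 3 libraries of cells carrying a short hairpin RNA (shRNA) against STAT3 with 3 libraries of cells carrying a control shRNA. Per the labels, both lines were constructed with shRNA and grown in DMEM with serum and antibiotics, and nothing says whether the libraries 1 to 3 came from separate cultures, clones or hairpins. A p-value here is set by how the 3 libraries of a group scatter, possibly for technical reasons alone. An effect of STAT3 loss and any other difference between the 2 lines cannot be told apart.

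MAGE proteins share a domain through which they bind and direct E3 ubiquitin ligases. GAGE, PAGE and XAGE proteins are small, acidic and largely without fixed structure, SSX proteins are nuclear repressors known from gene fusions in synovial sarcoma, and CTAG1A with its copy encodes the antigen NY-ESO-1. CSAG genes lie among the MAGEA genes, some of them head to head with one. In cells that do not use them, these genes are known to be kept silent by methylation of CG pairs at their promoters. All 32 antigen rows lie on chromosome X in GENCODE 29, many in families of near-identical copies.

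The libraries held 25862027, 19719848 and 17694642 counts with the STAT3 shRNA and 17408543, 19283150 and 20133064 with the control shRNA. Levels are given as CPM, the counts scaled to a common library size after composition correction. A count of 0 allows a level of up to 0.113 to 0.175 CPM, depending on the library (3 counts, counting error only). STAT3, a transcription factor activated by cytokine receptors, lay at 34.8, 35.8 and 36.2 CPM with the STAT3 shRNA and at 261.5, 246.7 and 246.3 CPM with the control shRNA, so each library had the STAT3 level its label names. Markers of the labelled cell type were nearly lacking: of 17 hepatocyte markers 9 had a row, 6 of these had at most 3 counts in every library, and the 9 summed to 6.05 to 8.94 CPM with the STAT3 shRNA and 2.27 to 4.06 CPM with the control shRNA. Albumin (ALB) had 0, 0 and 3 counts with the STAT3 shRNA and 2, 0 and 0 with the control shRNA. HNF4A, a liver transcription factor, rose to 6.58 ± 1.41 CPM with the STAT3 shRNA, against 1.51 ± 0.26 CPM with the control shRNA (SD, n = 3 each; edgeR adjusted p = 0.000406). TF, which encodes the iron carrier transferrin and was the other hepatocyte marker tested, lay at 0.806 ± 0.333 CPM with the STAT3 shRNA and 1.59 ± 0.875 CPM with the control shRNA (-0.97 ± 0.52 on the log2 scale, edgeR adjusted p = 0.239). Of the germ cell and testis markers, POU5F1 lay at 4.03 ± 0.70 CPM with the STAT3 shRNA and 3.70 ± 0.29 CPM with the control shRNA, and the others were near 0. The germ cell helicase gene DDX4 had 0, 0 and 1 counts with the STAT3 shRNA and 0 in each control library. Of 11 such markers 5 had a row, and these summed to 3.60 to 5.11 CPM with the STAT3 shRNA and 3.64 to 4.11 CPM with the control shRNA. The part of these markers in the results that follow was not tested. Whether the cells are HepG2 was not tested either, so the levels are those of cells so labelled.

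The near-identical copies set how far a count can be given to one gene. MAGEA3 and MAGEA6, which bind the ligase TRIM28, differ at 18 of 942 coding bases in the GENCODE 29 reference. The stretch of 90 coding bases (positions 434 to 523 from the start codon) that holds the most of these differences, 4, is shown because reads over such bases are what tells the genes apart. Capitals mark the bases that differ.
MAGEA3: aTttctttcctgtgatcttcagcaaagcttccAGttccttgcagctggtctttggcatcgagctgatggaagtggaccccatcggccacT
MAGEA6: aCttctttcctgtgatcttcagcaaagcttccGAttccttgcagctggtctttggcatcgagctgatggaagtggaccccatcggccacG

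The upstream sequences of 3 genes that rose and 2 that were high in both groups are shown for comparison, since promoter CG pairs are where these genes are known to be methylated. They are from RefSeq on GRCh38.p14, 5′ to 3′ on the strand of the gene, reach up to 250 bases before its start and stop short of annotated exons. Capitals mark each CG.
PAGE1, chrX:49695994-49696234, minus strand: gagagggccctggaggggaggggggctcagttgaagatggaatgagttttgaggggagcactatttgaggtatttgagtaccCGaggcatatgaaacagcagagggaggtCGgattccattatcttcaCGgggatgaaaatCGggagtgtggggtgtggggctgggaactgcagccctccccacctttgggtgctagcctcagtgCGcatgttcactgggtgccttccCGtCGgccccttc
MAGEA9, chrX:149781680-149781929, plus strand: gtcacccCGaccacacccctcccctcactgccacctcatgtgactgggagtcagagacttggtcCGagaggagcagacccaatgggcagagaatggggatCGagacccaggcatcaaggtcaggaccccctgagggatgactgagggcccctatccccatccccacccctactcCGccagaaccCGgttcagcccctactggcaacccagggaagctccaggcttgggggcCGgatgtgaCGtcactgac
MAGEB6, chrX:26192190-26192439, plus strand: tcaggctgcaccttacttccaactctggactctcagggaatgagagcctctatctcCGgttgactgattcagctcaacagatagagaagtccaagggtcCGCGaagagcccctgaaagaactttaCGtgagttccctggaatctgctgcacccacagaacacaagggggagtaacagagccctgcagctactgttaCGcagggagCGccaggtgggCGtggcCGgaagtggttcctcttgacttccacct
MAGEB2, chrX:30215313-30215559, plus strand: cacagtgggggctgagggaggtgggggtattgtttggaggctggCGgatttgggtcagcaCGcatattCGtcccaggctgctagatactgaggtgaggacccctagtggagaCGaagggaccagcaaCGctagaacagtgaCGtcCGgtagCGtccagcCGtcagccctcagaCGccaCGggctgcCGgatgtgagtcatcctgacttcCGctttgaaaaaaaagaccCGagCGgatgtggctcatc
MAGEA6, chrX:152769748-152769939, minus strand: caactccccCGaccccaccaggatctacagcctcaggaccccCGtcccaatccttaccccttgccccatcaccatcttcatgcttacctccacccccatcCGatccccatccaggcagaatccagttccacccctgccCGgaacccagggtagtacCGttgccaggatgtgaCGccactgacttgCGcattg
In the full windows of 250 bases, PAGE1 had 9 CG pairs, MAGEA9 had 7 and MAGEB6 had 8, while MAGEB2 and MAGEA6 had 15 each and MAGEA11, which also rose, had 18. The median over 35116 RefSeq windows was 11, so counts on either side of it occurred among genes that rose. The windows of MAGEA3 and MAGEA6 were identical over all 250 bases, as were those of MAGEA9 and MAGEA9B. The letters GGAA, the core of sites for ETS factors, or their reverse complement occurred in every window of the 27 of 32 antigen genes that RefSeq's table matched, and in 92.7% of all windows. The STAT-type letters TTCNNNGAA, which read the same on both strands, occurred in 0 of the antigen windows and in 6.57% of all windows. No methylation or binding was measured, and these are counts of letters in one window per start.

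To show how far reads could be shared, the longest GENCODE 29 transcript of each row was cut into all stretches of 100 bases, and the share found in no other annotated gene was counted. The read length is not given in the sources used here. All stretches of PAGE1, MAGEA1, MAGEA11, MAGEA12, MAGEB2 and XAGE2 were found in no other gene, as were 99.6% of those of CSAG1 and 94.1% of those of MAGEB6. For MAGEA3 and MAGEA6 the share was 63.9% each. It was 10.3% for MAGEA9, whose coding sequence equals that of MAGEA9B, 2.18% for MAGEA2 and 0% for its copy MAGEA2B. In GAGE12E, SSX4 and SSX4B it was also 0%. With stretches of 50 bases the share fell to 43.8% for MAGEA3 and 43.4% for MAGEA6, and with 150 bases it was 72.1% for each.

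**Figure D1:**
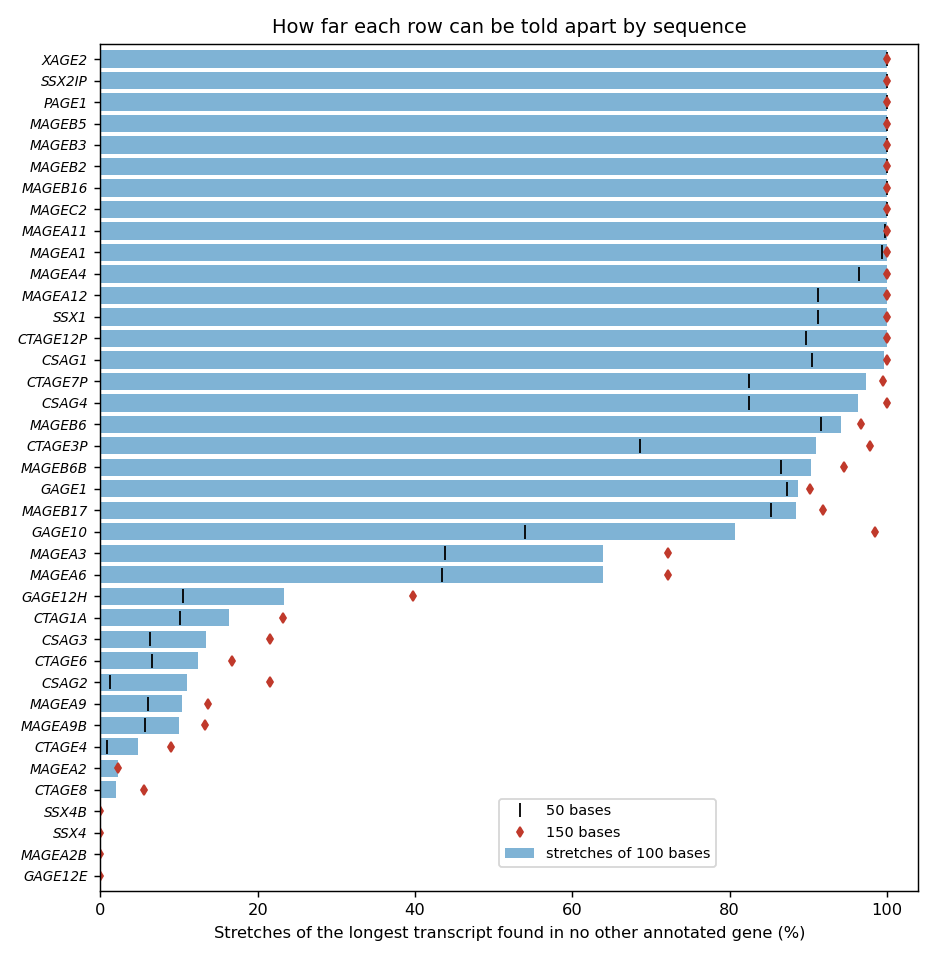
For each of the 39 rows (vertical axis), the bar gives the percent of stretches of 100 bases of its longest annotated transcript that occur in no other annotated gene, with ticks for 50 and diamonds for 150 bases. PAGE1, MAGEA11 and MAGEB2 stand at 100%, MAGEA9 at 10.3% and MAGEA2B, SSX4, SSX4B and GAGE12E at 0%.

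The antigen rows fell into 3 kinds by level. PAGE1, MAGEA11, MAGEA9 and MAGEB6 rose with the STAT3 shRNA and were low with the control shRNA. MAGEB2, MAGEA6, MAGEA1, MAGEA12 and CSAG1 were abundant in both groups. The others were low in both, most of them at or near 0. The 11 antigen rows that passed the filter on low counts (about 10 counts in 3 libraries) were tested with edgeR's quasi-likelihood test over all 14999 genes kept. At a false discovery rate (FDR) of 0.05, 4 of the 11 were called higher and 0 lower, beside 9.39% of all tested genes called higher and 8.13% lower, or 17.5% in either direction. At an unadjusted p under 0.05 the antigen rows gave 4 higher and 2 lower, and DESeq2 gave 4 and 0. Of all called genes 53.6% were higher, with a share of 68.7% when only the library totals were used for scaling. MAGEA9, MAGEA11 and MAGEB6 passed the filter only through the STAT3 shRNA libraries and so had to differ, which makes neither their call, their fold nor the gap between their groups a result to set against all genes. Among the 161 tested genes with a control mean under 0.3 CPM, a limit set after the values were seen, 68.9% were called higher, so for these 3 genes a call as such is close to the background. In CPM after composition correction, the groups did not overlap in 4 of the other 8 antigen rows tested, against 35.7% of all tested genes. PAGE1 was the 1 with all STAT3 shRNA libraries above all control libraries, as 18.5% of all tested genes had, and the only one of the 8 that was called and at least 8-fold higher, as 0.607% of all tested genes were. Over the other chromosome X genes, 9.72% of 432 tested were called higher and 8.56% lower.

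**Figure D2:**
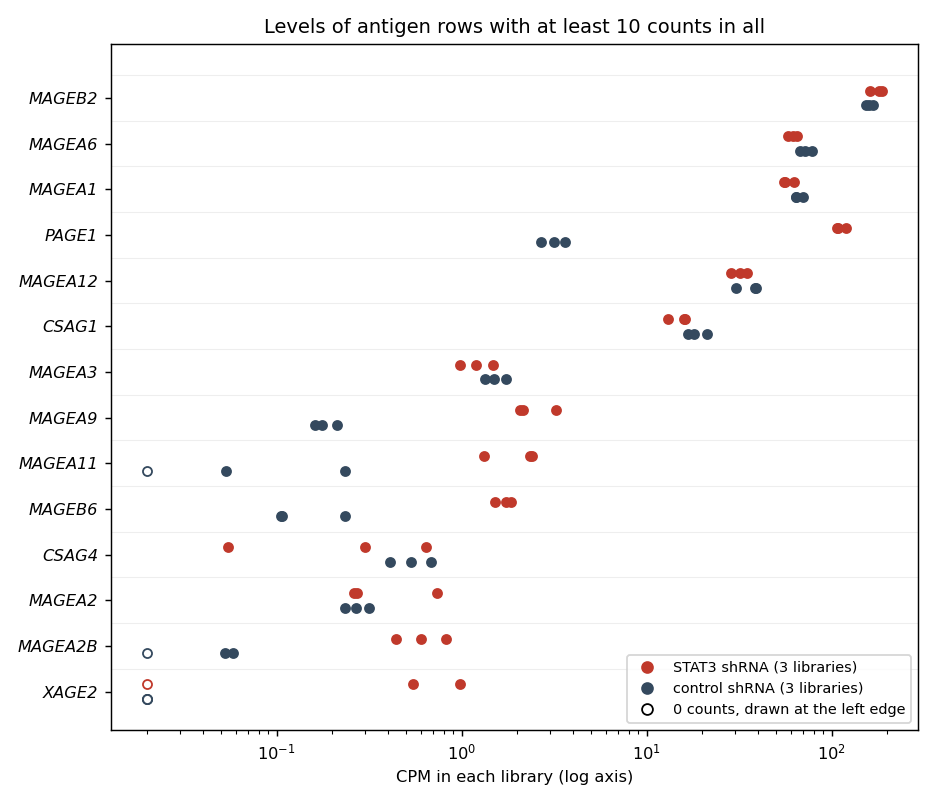
CPM in each library (log axis) for the antigen rows with at least 10 counts in all, with 3 STAT3 shRNA libraries in red and 3 control shRNA libraries in dark blue; open circles at the left edge are libraries with 0 counts. PAGE1 lies at 107.2 to 120.0 CPM with the STAT3 shRNA and 2.67 to 3.64 CPM with the control shRNA, while MAGEB2 overlaps between the groups.

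PAGE1 (ENSG00000068985.5), a GAGE-related antigen, changed most among the members. It had 2872, 2444 and 1966 counts with the STAT3 shRNA and 54, 50 and 69 counts with the control shRNA, or 107.9, 120.0 and 107.2 CPM against 3.15, 2.67 and 3.64 CPM. The groups were far apart, and the 3 libraries within each lay close together. In a bulk library, more cells with the transcript and more transcript per cell cannot be told apart. The mean was 111.7 ± 7.19 CPM with the STAT3 shRNA and 3.15 ± 0.484 CPM with the control shRNA (SD, n = 3 each), 35.4-fold higher. Its log2 fold change was 5.14 ± 0.14 (SE, edgeR adjusted p = 1.29e-07). PAGE1 stood at percentile 87.4 of mean CPM among tested genes with the STAT3 shRNA and at percentile 22.2 with the control shRNA. Only 28 of the 14999 tested genes had a larger fitted log2 fold change, 27 of them called. All its stretches of 100 bases are found in no other annotated gene.

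MAGEA11 (ENSG00000185247.15), known as a coregulator of the androgen receptor, had 35, 49 and 43 counts with the STAT3 shRNA and 4, 1 and 0 with the control shRNA. The means were 2.02 ± 0.613 CPM with the STAT3 shRNA and 0.0956 ± 0.122 CPM with the control shRNA (SD, n = 3 each). Its log2 fold change was 4.36 ± 0.68 (SE; edgeR adjusted p = 0.00231), a size that the few control counts leave uncertain. Over 13 alternative fits it ranged from 3.79 to 5.96, and each of them called it. MAGEB6 (ENSG00000176746.6), a member of the MAGEB group, had 49, 31 and 32 counts with the STAT3 shRNA and 4, 2 and 2 with the control shRNA. Its means were 1.70 ± 0.164 CPM with the STAT3 shRNA and 0.149 ± 0.0734 CPM with the control shRNA, and its log2 fold change was 3.49 ± 0.42 (edgeR adjusted p = 0.000588). Its relative MAGEB6B had 0, 0 and 2 counts with the STAT3 shRNA and 0 in each control library. In MAGEA11 and MAGEB6 the STAT3 shRNA libraries all lay above the control libraries. Both passed the filter only through the STAT3 shRNA libraries, so this gap had to arise. Neither it nor their calls are a result to set against all genes.

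MAGEA9 (ENSG00000166008.5) had 57, 42 and 59 counts with the STAT3 shRNA and 3, 3 and 4 with the control shRNA. Its mean was 2.47 ± 0.645 CPM with the STAT3 shRNA and 0.182 ± 0.0261 CPM with the control shRNA (SD, n = 3 each). It rose by 3.71 ± 0.38 on the log2 scale (SE, edgeR adjusted p = 0.000256). MAGEA9B, with the same coding sequence, had 0, 3 and 0 counts with the STAT3 shRNA and 0, 6 and 0 with the control shRNA, all in the libraries numbered 2. Which copy the reads came from cannot be told from these counts. The rows summed to 57, 45 and 59 counts with the STAT3 shRNA and 3, 9 and 4 with the control shRNA, and the pair rose by 3.09 ± 0.42 on the log2 scale (edgeR adjusted p = 0.00109). MAGEA2B had 16, 9 and 15 counts with the STAT3 shRNA and 1, 0 and 1 with the control shRNA and did not pass the filter. In the fit without a filter it was 3.86 ± 0.91 higher on the log2 scale (edgeR adjusted p = 0.00233), a size that the few control counts leave uncertain. MAGEA2, of which it is a full copy in coding sequence, had 7, 15 and 5 counts with the STAT3 shRNA and 4, 5 and 6 with the control shRNA. The STAT3 shRNA library with the most MAGEA2 counts had the fewest MAGEA2B counts. The raw sums were 23, 24 and 20 counts with the STAT3 shRNA, in libraries of unequal depth, against 5, 5 and 7 with the control shRNA. Scaled, the sum was 1.04 ± 0.162 CPM with the STAT3 shRNA and 0.309 ± 0.0533 CPM with the control shRNA (SD, n = 3 each). Fitted as 1 row in place of both, the pair was 1.73 ± 0.39 higher on the log2 scale (edgeR adjusted p = 0.0147). Both summed pairs passed the filter only through the STAT3 shRNA libraries, so they too had to differ, and their calls carry the same limit as those of the single low genes.

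**Figure D3:**
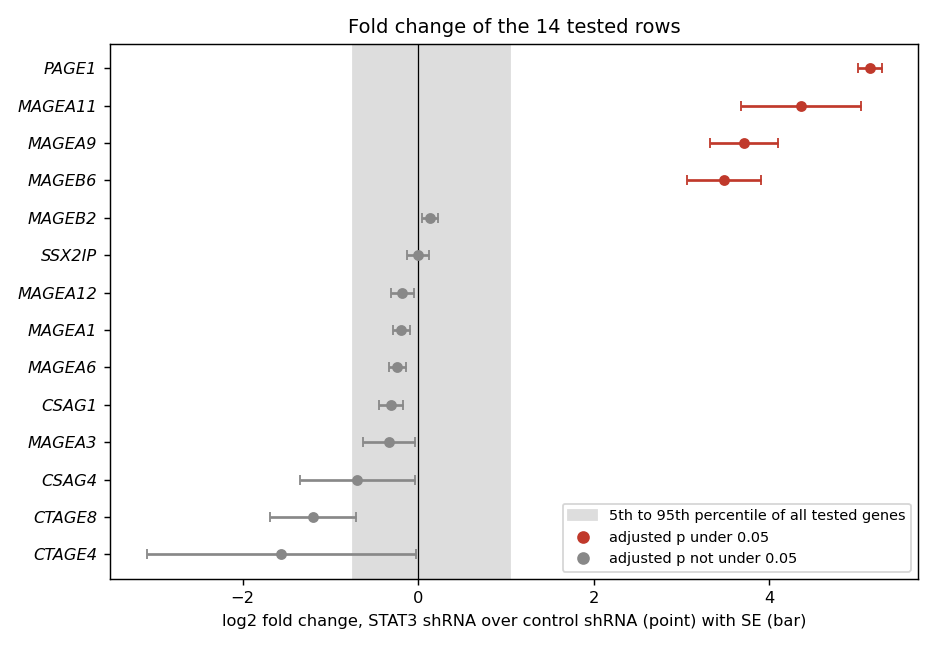
Log2 fold change of STAT3 shRNA over control shRNA with its SE for the 14 tested rows (11 antigen rows, 2 CTAGE rows and SSX2IP), with the range from the 5th to the 95th percentile of all tested genes in grey. PAGE1, MAGEA11, MAGEA9 and MAGEB6 lie between 3.49 and 5.14, to the right of the grey range, and the other antigen rows lie within it.

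The abundant members differed little. MAGEB2 (ENSG00000099399.6), which in the testis is known to limit stress granules, lay at 179.3, 161.2 and 186.3 CPM with the STAT3 shRNA and at 167.1, 154.1 and 159.3 CPM with the control shRNA. The groups overlapped, and the log2 fold change was 0.13 ± 0.088 (SE; edgeR adjusted p = 0.341). MAGEA6 (ENSG00000197172.6), which with TRIM28 is known to target the energy sensor AMPK, lay at 58.2, 65.1 and 61.9 CPM with the STAT3 shRNA and at 67.7, 71.8 and 78.4 CPM with the control shRNA. After composition correction all STAT3 shRNA libraries were lower. The difference of -0.24 ± 0.095 on the log2 scale did not pass the threshold (edgeR adjusted p = 0.124). MAGEA1 (ENSG00000198681.7), the antigen through which the family was found in melanoma, was placed the same way, at 55.6, 55.4 and 62.4 CPM with the STAT3 shRNA and 64.1, 63.9 and 69.8 CPM with the control shRNA (-0.19 ± 0.093, edgeR adjusted p = 0.200).

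MAGEA12 lay at 28.6, 34.7 and 31.9 CPM with the STAT3 shRNA and 30.3, 38.5 and 39.1 CPM with the control shRNA, with overlap (-0.18 ± 0.13, edgeR adjusted p = 0.377). CSAG1, its neighbour on the other strand, lay at 15.9, 13.1 and 16.2 CPM with the STAT3 shRNA and 16.7, 18.0 and 21.3 CPM with the control shRNA (-0.31 ± 0.14, edgeR adjusted p = 0.156). The values of MAGEA6, MAGEA1, MAGEA12, MAGEA3 and CSAG1 stayed below 0 in all 13 alternative fits and none of these called one of them. In CPM all STAT3 shRNA libraries lay below all control libraries for MAGEA6, MAGEA1 and CSAG1, as they did for 17.2% of all tested genes. This gap depends on the composition correction, whose factors were 1.030 to 1.038 with the STAT3 shRNA and 0.943 to 0.986 with the control shRNA. By counts over the library totals alone, the groups overlapped for each of these genes. With that scaling the log2 fold changes were -0.14 for MAGEA6, -0.09 for MAGEA1 and -0.21 for CSAG1. Per kilobase of the longest transcript, PAGE1 had the highest mean level with the STAT3 shRNA, 168 CPM per kb, followed by MAGEB2 with 109, MAGEA6 with 35.0, MAGEA1 with 33.8, MAGEA12 with 18.0 and CSAG1 with 14.5. With the control shRNA PAGE1 had 4.74 CPM per kb, below MAGEB2 with 99.5, MAGEA6 with 41.2, MAGEA1 with 38.6, MAGEA12 with 20.4 and CSAG1 with 18.0. The mean levels per kb of MAGEA6 and MAGEA1 differed by less than the SD of either with the STAT3 shRNA.

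MAGEA3 had 26, 30 and 22 counts with the STAT3 shRNA and 23, 28 and 33 with the control shRNA (difference -0.33 ± 0.30 on the log2 scale, edgeR adjusted p = 0.488). Its near-copy MAGEA6 had 44.2 to 59.6 times as many counts in the STAT3 shRNA libraries and 45.1 to 50.5 times as many in the control libraries. The pair shares its upstream window of 250 bases, and how the authors' counting treated reads that match both is not given in the sources used here. Summed into 1 row, the pair gave -0.24 ± 0.095 (edgeR adjusted p = 0.124), the value of MAGEA6 alone.

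The summed level of the 32 antigen rows was 463.5 ± 11.6 CPM with the STAT3 shRNA and 359.7 ± 13.1 CPM with the control shRNA (SD, n = 3 each). Without PAGE1 it was 351.8 ± 15.3 CPM with the STAT3 shRNA and 356.6 ± 12.6 CPM with the control shRNA, a difference smaller than the spread between libraries. PAGE1 made up 22.5% to 26.1% of the antigen counts in the STAT3 shRNA libraries and 0.758% to 0.970% in the control libraries. MAGEB2 made up 35.0% to 39.5% with the STAT3 shRNA and 42.5% to 47.4% with the control shRNA. The number of antigen rows with at least 10 counts was 11, 13 and 12 of 32 in the STAT3 shRNA libraries and 7, 8 and 8 in the control libraries. This limit is on raw counts in libraries of unequal depth. MAGEA9, MAGEA11 and MAGEB6, which passed the filter only through the STAT3 shRNA libraries, reach it in that group alone. The same was not counted over all genes, so these numbers are no measure of the families.

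**Figure D4:**
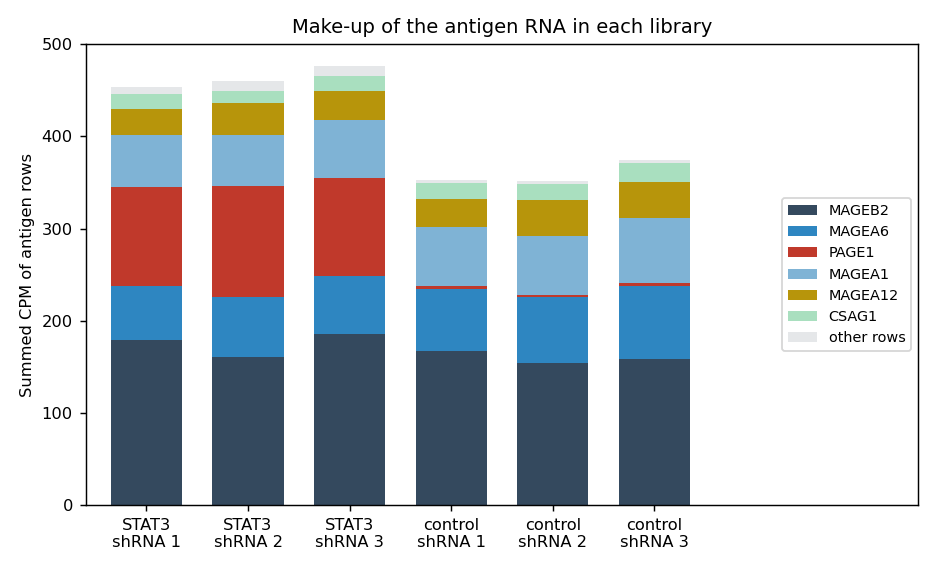
Summed CPM of the 32 antigen rows in each library (bars from 0), split into the 6 most abundant genes and all other rows. The PAGE1 part spans 107.2 to 120.0 CPM in the STAT3 shRNA libraries and 2.67 to 3.64 CPM in the control libraries, and the other parts differ little between the groups.

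The remaining families were barely detected. XAGE2, a small acidic antigen, had 0, 20 and 10 counts with the STAT3 shRNA and 0 in each control library, so 1 STAT3 shRNA library showed none. It did not pass the filter. In the fit without a filter its log2 fold change was 6.34 ± 2.02 (SE, edgeR adjusted p = 0.0906). The 4 GAGE rows summed to 8, 3 and 2 counts with the STAT3 shRNA and 3, 0 and 0 with the control shRNA, with GAGE12H at 3, 1 and 1 in the STAT3 shRNA libraries and 0 in each control library. SSX1 had 1, 0 and 1 counts with the STAT3 shRNA and 1, 0 and 0 with the control shRNA, and the copies SSX4 and SSX4B had 0 in every library. MAGEC2 had 0, 1 and 0 counts with the STAT3 shRNA and 0, 0 and 1 with the control shRNA. CTAG1A had 1 count in STAT3 shRNA library 1 only, and MAGEA4 2 counts in control library 1 only. MAGEB3, MAGEB5, MAGEB16 and MAGEB17 had at most 2 counts in any library. None of these rows passed the filter, so the main fit did not test them. The fit without a filter called none of them, and at such counts their differences are poorly fixed. CSAG2 and CSAG3 had the same counts in every library, 5, 1 and 0 with the STAT3 shRNA and 2, 1 and 0 with the control shRNA, and no more than 13.4% of the stretches of 100 bases of either are found in no other gene. The pseudogene CSAG4, which shares 33 exon bases with MAGEA12 on the same strand, had 8, 13 and 1 counts with the STAT3 shRNA and 7, 10 and 13 with the control shRNA (-0.69 ± 0.65 on the log2 scale, edgeR adjusted p = 0.511).

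The rows that only share letters with the antigen names behaved differently from each other. SSX2IP lay at 43.1, 39.9 and 42.7 CPM with the STAT3 shRNA and 47.5, 44.0 and 34.5 CPM with the control shRNA (edgeR adjusted p = 0.989). CTAGE4 had 0, 0 and 66 counts with the STAT3 shRNA and 73, 35 and 75 with the control shRNA, so the STAT3 shRNA libraries were split between none and a level like the control. It was not called (-1.56 ± 1.54 on the log2 scale, edgeR adjusted p = 0.547), but without STAT3 shRNA library 3 it was (edgeR adjusted p = 0.00217). That library held all the CTAGE4 counts of its group, so leaving it out had to widen the difference. CTAGE8, a copy that differs from CTAGE4 at 5 of 2331 coding bases, had 10, 20 and 7 counts with the STAT3 shRNA and 32, 24 and 16 with the control shRNA (-1.20 ± 0.49, edgeR adjusted p = 0.129). Of the stretches of 100 bases, 4.82% of those of CTAGE4 and 2.01% of those of CTAGE8 are found in no other gene. Which copy the reads came from cannot be told from these counts. CTAGE6 had 8, 7 and 9 counts with the STAT3 shRNA and 4, 4 and 14 with the control shRNA. Summed over CTAGE4, CTAGE6 and CTAGE8, a step added after the values were seen, the counts were 18, 27 and 82 with the STAT3 shRNA and 109, 63 and 105 with the control shRNA, and the sum differed by -1.27 ± 0.63 on the log2 scale (edgeR adjusted p = 0.223). The pseudogene CTAGE7P had 7, 16 and 3 counts with the STAT3 shRNA and 14, 7 and 7 with the control shRNA, and CTAGE12P had 5, 2 and 3 with the STAT3 shRNA and 0, 3 and 0 with the control shRNA. CTAGE3P had at most 2 counts in any library.

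The 5 tested genes nearest on either side of each called member in annotation order, members left out, were read too, whatever their distance. Over the 31 different genes, 1 was called higher and 5 lower, with a median log2 fold change of 0.05, beside -0.01 over all tested genes and the 9.39% and 8.13% called over all. Around PAGE1, USP27X, a deubiquitinase, rose (0.95 ± 0.27, edgeR adjusted p = 0.0379) and PRICKLE3, a planar polarity gene, fell (-0.41 ± 0.10, edgeR adjusted p = 0.0232). USP27X lies 184 kb and PRICKLE3 501 kb from PAGE1. MAMLD1, a gene of male sexual development placed 574 kb beyond MAGEA9 and 644 kb beyond MAGEA11, fell. It lay at 9.60 ± 2.04 CPM with the STAT3 shRNA, against 32.6 ± 2.98 CPM with the control shRNA (-1.75 ± 0.16, edgeR adjusted p = 0.000121). On one side of MAGEB6 the initiation factor gene EIF2S3 fell (-0.43 ± 0.11, edgeR adjusted p = 0.0265), and on the other dystrophin (DMD) fell (-1.27 ± 0.11, edgeR adjusted p = 0.000121). EIF2S3 lies 2114 kb and DMD 4902 kb from MAGEB6, so neither belongs to its close surroundings. The 1 higher gene became 0 without STAT3 shRNA library 1 or 3 or control library 2 or 3, and 6 without control library 1. The 5 lower genes became 2 without STAT3 shRNA library 1 or 3 or control library 2, and 3 without STAT3 shRNA library 2.

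**Figure D5:**
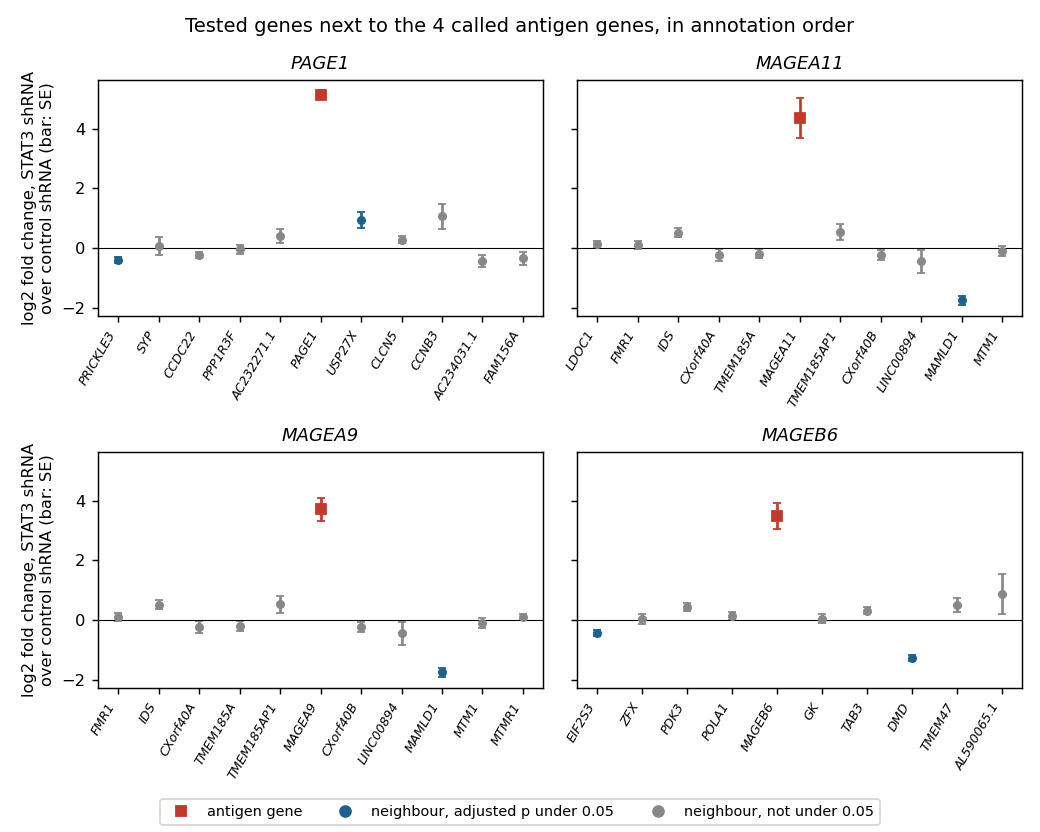
Log2 fold change of STAT3 shRNA over control shRNA with its SE for PAGE1, MAGEA11, MAGEA9 and MAGEB6 (red squares) and up to 5 tested non-member genes on each side in annotation order, whatever their distance (blue where the adjusted p is under 0.05, grey otherwise). The antigen genes lie between 3.49 and 5.14, and no neighbour shown lies above 1.06.

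Genes linked to these families were read from lists chosen with earlier results of these data known. Of 40 other germline and cancer-testis genes on autosomes, 24 had a row and 7 were tested, of which 3 rose and 0 fell (unadjusted p under 0.05: 4 and 0; DESeq2: 3 and 0), beside 9.39% higher and 8.13% lower over all tested genes. The median log2 fold change of the 7 was 0.57, but TDRD9 passed the filter on low counts only through the STAT3 shRNA libraries and had to differ, and MOV10L1 passed it in 1 control library, so this count and median are no measure of the list. Of the low genes described above, with a control mean under 0.3 CPM as TDRD9 had, 68.9% were called higher. TDRD9, a helicase of the piRNA pathway that silences transposons in germ cells, had 19, 20 and 19 counts with the STAT3 shRNA and 0, 0 and 2 with the control shRNA (4.42 ± 0.77 on the log2 scale, edgeR adjusted p = 0.00429). MOV10L1, a helicase of the same pathway, had 88, 50 and 63 counts with the STAT3 shRNA and 13, 7 and 9 with the control shRNA (2.51 ± 0.33, edgeR adjusted p = 0.000904). PRAME, an antigen that binds a ubiquitin ligase, rose to 80.2 ± 4.88 CPM with the STAT3 shRNA, against 62.5 ± 5.42 CPM with the control shRNA (0.36 ± 0.098, edgeR adjusted p = 0.0343). Without control library 1, 5 genes of this list were called higher. Of 51 other X-linked cancer-testis genes, 15 had a row and CT83 alone was tested, at 172, 165 and 143 counts with the STAT3 shRNA and 128, 219 and 237 with the control shRNA (-0.51 ± 0.20, edgeR adjusted p = 0.125). Without control library 1, 1 gene of this list was called lower. CT47A12, the next in level, had 8, 5 and 4 counts with the STAT3 shRNA and 2, 0 and 0 with the control shRNA.

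Of 3 tested MAGE genes that most tissues use, 1 rose and 0 fell (unadjusted p under 0.05: 1 and 0; DESeq2: 1 and 0; median 0.08), and 1 gene of 3 is too few to set against the 9.39% called higher over all tested genes. MAGED2, which is known from a kidney salt-wasting syndrome, rose to 186 ± 4.20 CPM with the STAT3 shRNA, against 151 ± 4.76 CPM with the control shRNA (0.30 ± 0.078, edgeR adjusted p = 0.0288). That count was 0 without any one STAT3 shRNA library or control library 2. Among 10 tested ubiquitin ligases and other proteins reported to work with MAGE proteins, 1 rose and 0 fell (unadjusted: 2 and 0; DESeq2: 1 and 0; median 0.06). That is a share close to the 9.39% called higher over all tested genes. TRIM31, a ligase, lay at 1.78 ± 0.242 CPM with the STAT3 shRNA and 0.796 ± 0.193 CPM with the control shRNA (1.14 ± 0.32, edgeR adjusted p = 0.0374). Its call was lost without any one STAT3 shRNA library or control library 2 or 3. Of 26 tested genes of silencing by DNA methylation and repressive chromatin, 2 rose and 0 fell (unadjusted: 3 and 3; DESeq2: 2 and 0; median 0.01). The 7.69% that rose are no more than the 9.39% over all tested genes. The 2 genes were ATF7IP, a partner of the histone methyltransferase SETDB1 (0.62 ± 0.15, edgeR adjusted p = 0.0204), and E2F6, a repressor of germline genes (0.37 ± 0.10, edgeR adjusted p = 0.0321). That count became 0 without STAT3 shRNA library 1 or 3 or control library 2, and 5 without control library 1.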

How the data were processed

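RNA sequencing libraries labelled HepG2 were analysed, 3 with a STAT3 shRNA and 3 with a control shRNA. The authors deposited a table of whole-number counts per gene, and the library totals differ as raw counts do. Of the aligner, counter, strand setting, build and annotation, none is given in the sources used here, so reads on opposite strands of overlapping genes cannot be told apart. The tests used edgeR 4.0.16 under R 4.3.3: filterByExpr at its defaults (minimum count 10, minimum total 15), TMM scaling, which assumes that most genes do not differ, and the two-sided quasi-likelihood F test with robust dispersion and group as the only term. Benjamini-Hochberg adjustment ran over all 14999 tested genes. SEs are |log2 fold change| over the root of F. Replicates gave chi-square values of 4.34 to 45.4 per degree of freedom, so none repeats another library.

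The members and lists were chosen with earlier results of these data known. Every tested member is named; of the untested, the highest of each family and those with 10 or more counts; of each list, up to 4 called genes with the smallest FDR, or the 2 highest if none was called; of the neighbours, called ones, 1 of which is counted but not reported here. Others named were chosen after their values were seen. Of the 39 rows, 36 matched GENCODE 29 by identifier and 3 by symbol, for transcripts, length and gene order only. Coding sequences were aligned with Biopython 1.88 in place of the proteins, which were not used here. The edgeR procedure was tested on simulated counts. Alternatives were other scalings, DESeq2 1.42.0, no filter, the library number as a block, summed copies and leaving out each library.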

Additional observations from a re-analysis of the deposited data

How the results depend on the processing

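The calls of PAGE1, MAGEA11, MAGEA9 and MAGEB6 held in all 13 alternative fits each, and no alternative called an antigen row lower. MAGEA11, MAGEA9 and MAGEB6 passed the filter only through the STAT3 shRNA libraries. Refits of the same counts therefore add no support to the calls of these genes. Leaving out 1 library at a time gave 4 to 5 antigen rows called higher, always with these genes among them. Over all genes, those called higher ranged from 796 of 15267 tested without STAT3 shRNA library 1 to 2068 of 15455 without control library 1. SSX2IP, near 0 in the main fit, turned to 0.0491 with upper-quartile scaling, 0.0899 with library totals and 0.0058 with the replicate block, and ranged from -0.12 to 0.11 with 1 library left out. Neighbouring genes called higher numbered 3 with upper-quartile scaling, library totals, DESeq2 or no filter, and those called lower 3 with library totals. Without a filter 5 antigen rows were called higher, the added one being MAGEA2B, and 0 MAGE partners were called. With the library number as a replicate block, 0 broadly expressed MAGE genes, 0 MAGE partners and 1 silencing gene were called higher. Same-numbered libraries correlated at 0.344, 0.217 and -0.284 in their deviations from the group means, and differently numbered ones at -0.545 to 0.413. With 3 libraries in each group these values cannot tell whether the numbers pair the libraries. The block changed no antigen call. With 1 library left out, neighbours called ranged from 0 to 6 higher and 2 to 6 lower, germline genes from 2 to 5 higher, silencing genes from 0 to 5 higher, and broadly expressed MAGE genes and MAGE partners from 0 to 1 higher, with 0 to 1 X-linked genes lower. The genes called over the whole table numbered 2627, but 1462 when STAT3 shRNA library 1 was left out, 1475 for STAT3 shRNA library 3, 4098 for control library 1 and 1527 for control library 2. The cause was not tested in any of these cases. Depth limits the rows with a few counts, whose fold changes are poorly fixed.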

Other observations

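Some low genes outside the rule for naming were chosen after their values were seen. MAGED1, a broadly expressed MAGE gene, had 11, 3 and 11 counts with the STAT3 shRNA and 0, 1 and 0 with the control shRNA. PIWIL2, a germline gene of the piRNA pathway, had 23, 10 and 17 counts with the STAT3 shRNA and 4, 2 and 9 with the control shRNA. In both the STAT3 shRNA libraries lay above the control libraries, which was seen before they were chosen. The 18.5% of all tested genes placed this way is therefore no background for them. For PIWIL2 the closest values were 0.491 CPM in STAT3 shRNA library 2 and 0.474 CPM in control library 3. Neither gene passed the filter on low counts, so neither was tested in the main fit. PLAC1, a low X-linked gene of the lists, had a lower mean with the STAT3 shRNA. Its counts were 1, 0 and 2 there and 1, 2 and 9 with the control shRNA.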
